A study of Mus musculus with 36 samples.

Results

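The comparison described here is that of catalytically active RfxCas13d with its catalytically dead form, dRfxCas13d, when both were given the same guide, Mapt crRNA 4. The members were chosen by their sample titles and are 4 of the 36 libraries of the series, 2 of RfxCas13d+Mapt crRNA 4 and 2 of dRfxCas13d+Mapt crRNA 4. Each library was made from N2a cells, a mouse neuroblastoma line, which had been transfected with plasmids for the nuclease and the crRNA and collected as GFP-positive cells 48 h later. RNA was extracted with TRIzol and sequenced with an mRNA library kit, and the values are FPKM, that is, fragments scaled to the length of the gene and to the fragments of the library. All 4 libraries therefore share the crRNA and the protocol of transfection and sorting, and differ by design in the catalytic activity of the nuclease. The active and the dead form were transfected into separate cells. A difference between these transfections or sorts cannot be told apart from one of catalytic activity. The matched RfxCas13d and dRfxCas13d libraries with a non-targeting (NT) crRNA, with a second guide to the same gene (Mapt crRNA 6) and with 5 crRNAs to other genes (Map2 crRNA 1 and 3, Sik3-S crRNA 1 and 8, Rbfox3 crRNA 5) served to ask which differences were found with crRNA 4 and not with these guides. Nothing in the labels tells whether the 2 libraries of a group were transfected separately. The p-values therefore reflect only how far these libraries differ, and that spread may be technical.

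RfxCas13d is an RNA-guided RNA nuclease of the type VI-D CRISPR family. A crRNA holds a constant hairpin that the protein binds and a spacer that pairs with the target RNA, and pairing switches on a nuclease site on the surface of the protein. This site can cut the bound target and can also cut other RNAs nearby, which is termed collateral activity, whereas the dead form binds the target without cutting. Mapt encodes tau, a microtubule-associated protein of neurons.

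The spacer of crRNA 4 is shown beside that of crRNA 6 because they overlap, so that the second guide tests almost the same stretch of RNA. The capitals mark the bases that the spacers of both guides share, and every sequence is written 5′ to 3′.
Mapt crRNA 4 spacer: cttagATAAAAGAAAAGGCAGA
Mapt crRNA 6 spacer: ATAAAAGAAAAGGCAGAggtcc
Mapt crRNA 4 target site: TCTGCCTTTTCTTTTATctaag
Mapt crRNA 6 target site: ggaccTCTGCCTTTTCTTTTAT
NT crRNA spacer: tcaccagaagcgtaccatactc
Each spacer has 22 bases, of which the Mapt guides share 17, and the sites are shifted by 5 bases. The site of crRNA 4 lies at chr11:104329654-104329675 on the plus strand and that of crRNA 6 at chr11:104329649-104329670 (GRCm38, the same assembly as mm10). Both lie in the last exon of Mapt, in the 3′ UTR, 1470 and 1465 bases after the stop codon, and are carried by 1 of the 12 annotated Mapt transcripts in GENCODE. The spacer of crRNA 4 is rich in purines (77.3%) and has 31.8% G and C, against 50.0% in the NT spacer. No other annotated gene held the crRNA 4 site with up to 3 mismatches, and 27 genes held it with 4.

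The 4 libraries were of similar depth. As the table holds FPKM and no counts, the number of fragments was estimated from the steps between low values of single-exon genes, and came to 10440000 and 13210000 with RfxCas13d and to 10780000 and 9500000 with dRfxCas13d (8620000 to 16410000 over all 36). At these depths 1 fragment on the long Mapt gene is worth 0.0101 to 0.0140 FPKM, but on a small nucleolar RNA such as Snord104 it is worth 1.08 to 1.5 FPKM. The log2 values of replicates correlated with r = 0.990 with RfxCas13d and 0.989 with dRfxCas13d across genes. Markers of the line were present. Of 12 sympathetic neuroblast markers, Phox2a, a transcription factor of noradrenergic neurons, lay at 98.1 to 119.7 FPKM and Hand2, another such factor, at 163.7 to 187.5 FPKM in the 4 libraries, while Th was under 1 FPKM. Markers of other cells were low. Fibroblast markers summed to 2.32 to 4.47 FPKM with Lum and Thy1 at 0, macrophage markers to 2.76 to 4.33 FPKM with Adgre1, C1qa and C1qb at 0, glial markers to 2.72 to 3.84 FPKM with Aqp4 at 0, and liver markers to 0.451 to 1.76 FPKM with Fgb and Serpina1a at 0. Fibroblast sums were 3.43 and 4.47 FPKM with RfxCas13d against 2.32 and 2.94 FPKM, macrophage sums were 4.28 and 4.33 FPKM against 2.76 and 2.81 FPKM, and Cd68, a macrophage marker, was itself called higher, at 3.78 and 3.54 FPKM against 1.18 and 1.33 FPKM (log2 fold change of 1.06), while glial and liver sums were lower. Their part in the results was not tested. One library used for comparison stood apart, replicate 1 of RfxCas13d+NT crRNA, with 263.3 FPKM of Alb and a liver marker sum of 403.3 FPKM, so the counts and the main values of the comparison with NT crRNA are also given without it.

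Mapt, the target, fell strongly with the active nuclease. With dRfxCas13d it was at 32.5 FPKM in replicate 1 and 34.3 FPKM in replicate 2, and with RfxCas13d at 2.23 and 2.60 FPKM, so that both active libraries lay far below both dead ones. The gene spans chr11:104229409-104332090 (mm10). After scaling between libraries, 7.29% of the dead-nuclease mean remained, and the 4 possible pairs of 1 active and 1 dead library gave 6.53 to 8.10%. In limma the log2 fold change on the log2(FPKM + 1) scale was -3.32 ± 0.0620 (SE), with an adjusted p of 1.01e-20. An exact permutation test of 2 against 2 libraries cannot give a two-sided p below 0.333, which was the value here. Against the RfxCas13d+NT crRNA libraries, 9.49% of Mapt remained, and 9.30% against replicate 2 alone, the library without liver transcripts.

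Mapt was also lower with active nuclease and guides that do not target it. With RfxCas13d and NT crRNA, 75.3% of the Mapt level of the matched dead libraries remained (76.8% without the library with liver transcripts), and without any crRNA 89.3%. With the 5 crRNAs to Sik3-S, Map2 and Rbfox3 the remaining share lay between 40.4% (Sik3-S crRNA 8) and 61.6% (Rbfox3 crRNA 5). With Mapt crRNA 6 it was 7.76%. The change of Mapt with crRNA 4 exceeded that with NT crRNA by -2.93 ± 0.0877 (SE) on the log2 scale (limma, adjusted p = 3.04e-16; -2.96 without the library with liver transcripts) and the mean change with the 5 other crRNAs by -2.37 ± 0.0680 (adjusted p = 1.21e-16), whereas it differed from that with crRNA 6 by -0.15 ± 0.0877 (adjusted p = 0.686), so that a difference between these guides was not detected.

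**Figure D1:**
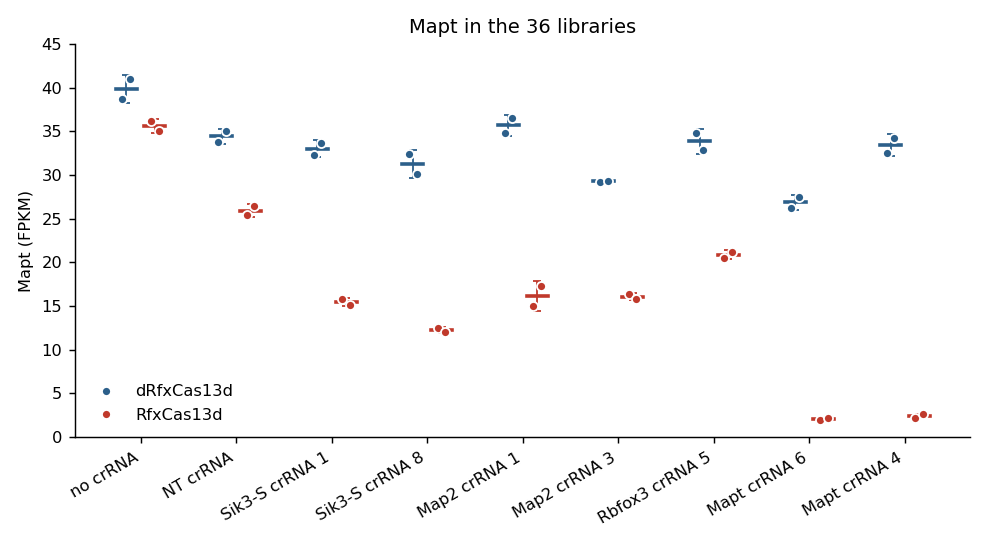
Mapt in FPKM (vertical axis) in the 36 libraries by crRNA (horizontal axis), 1 point per library, with the mean as a bar and the SD as a line, blue for dRfxCas13d and red for RfxCas13d. The active libraries with Mapt crRNA 4 lie at 2.23 and 2.60 FPKM, and those of the 5 crRNAs to other targets lie between those of NT crRNA and those of the Mapt guides.

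Of the other genes targeted in the series, which crRNA 4 does not target, Map2 and Sik3 were lower with the active nuclease by less than a fold of 2. Map2, another microtubule-associated protein of neurons, was at 10.8 and 12.6 FPKM with dRfxCas13d and at 6.91 and 6.59 FPKM with RfxCas13d. Sik3, a kinase related to AMP-activated protein kinase, was at 18.2 and 21.4 FPKM against 11.6 and 10.7 FPKM. Neither gene's groups overlapped, and 37.5% of all genes tested likewise had both RfxCas13d values below both dRfxCas13d values. The log2 fold changes of -0.70 for Map2 (adjusted p = 5.98e-08) and -0.76 for Sik3 (adjusted p = 3.05e-08, limma) stayed under a fold of 2. Rbfox3, which encodes the neuronal marker NeuN, was at 0.058 and 0 FPKM with RfxCas13d and at 0.037 and 0.042 FPKM with dRfxCas13d, and did not pass the filter on low values.

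Beyond the target, more genes were higher than lower with the active nuclease. A gene was called when its limma p, adjusted over all 13293 genes tested, was under 0.05 and its fold change was at least 2 on the log2(FPKM + 1) scale. By this rule 309 genes were called higher (2.32% of those tested) and 113 lower (0.85%), together 422 (3.17%), and 215 of the higher and 101 of the lower genes were protein-coding. At an adjusted p under 0.05 alone, 27.9% of the genes tested were higher and 26.8% lower. The median log2 fold change over all genes tested was 0.00. Both RfxCas13d values lay beyond both dRfxCas13d values in 306 of the 309 and in all 113, and over all genes tested in 37.0% above and 37.5% below. The 309 had a median exon length of 1232 bases and the 113 one of 3749 bases, against 4060 bases over all genes tested. FPKM are relative to all fragments of a library, so a loss of RNA that struck all genes alike would not be seen, and fewer transcripts per cell cannot be told apart from fewer cells that make them.

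The share of genes called higher differed with exon length. Of 533 entries under 300 bases, 64 were called higher and 6 lower, with a median log2 fold change of 0.00. Of 550 entries of 300 to 1000 bases, 66 were called higher and 5 lower, with a median log2 fold change of 0.27. Of 8586 genes over 3000 bases, 34 were called higher (0.396%) and 67 lower (0.78%), with a median of -0.07. The corresponding medians with NT crRNA were 0.05 in the class of 300 to 1000 bases and -0.02 in that over 3000 bases, also without the library with liver transcripts. When the trend on length was removed from the fold changes, 165 genes were called higher and 163 lower, of which 156 and 84 were among those called before, and 98 genes without a known length, 5 of them called higher, were left out. Without the trend, higher and lower calls were thus about equal in number.

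**Figure D2:**
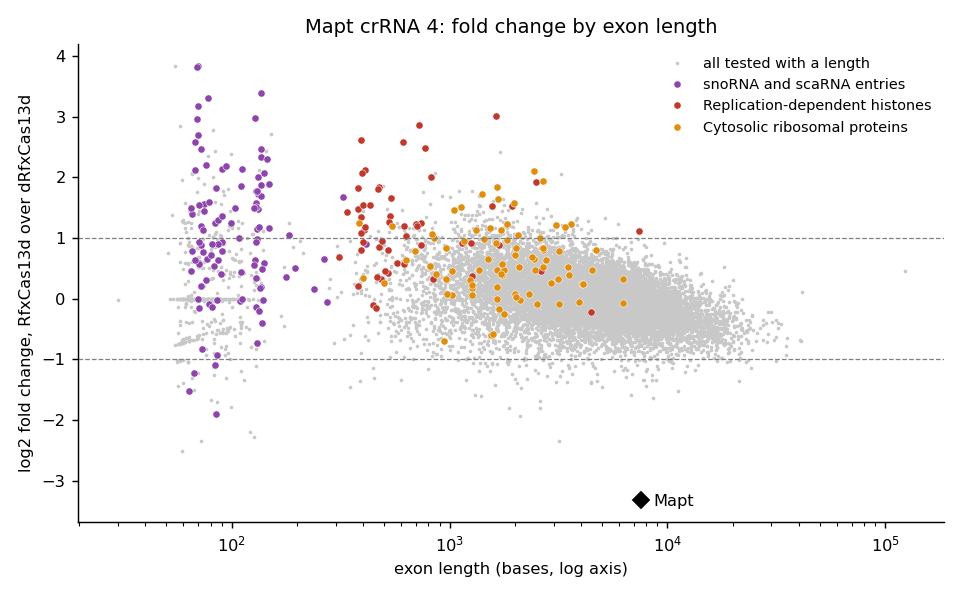
The log2 fold change of RfxCas13d over dRfxCas13d with Mapt crRNA 4 (vertical axis, on the log2(FPKM + 1) scale) against exon length in bases (horizontal log axis), 1 point per gene, with 3 gene lists in colour, Mapt as a black diamond and dashed lines at a fold of 2. The coloured groups of short RNAs lie mostly above 0, and Mapt is the lowest point.

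Replication-dependent histones were the list with the highest share of members called higher. These genes make the bulk histones of S phase, and their mRNAs end in a stem-loop in place of a poly(A) tail. How mRNAs without this tail came into libraries made with an mRNA kit was not tested. Of 66 histone genes in the table, 55 were tested, and 31 were called higher and 0 lower, with a median log2 fold change of 1.13. Over all genes tested, 2.32% were called higher. The active values lay above the dead values in 48 of the 55, against 37.0% over all genes tested. The summed level was 414.3 and 429.9 FPKM with RfxCas13d and 112.7 and 107.5 FPKM with dRfxCas13d, a ratio of 3.83. All 5 classes held called members, with 4 of 5 tested linker histone H1 genes, 7 of 13 H2A genes, 6 of 15 H2B genes, 5 of 10 H3 genes and 9 of 12 H4 genes called higher. With the length trend removed 22 histones were called higher, with a median of 0.92. At a mean of at least 5 FPKM, 11 histones were tested and 7 of them called higher.

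H2bu2, a histone H2B gene with the highest level among the named histones (chr11:58948911-58949372), was at 116.2 and 120.2 FPKM with RfxCas13d and at 23.7 and 15.2 FPKM with dRfxCas13d. Its log2 fold change was 2.58 ± 0.182 (SE, adjusted p = 1.49e-10). H4c14, a histone H4 gene at chr3:96262934-96263317, was at 28.7 and 25.1 FPKM against 1.68 and 3.51 FPKM. Its log2 fold change was 3.01 ± 0.334 (adjusted p = 1.04e-07), the largest among the protein-coding genes named by size. H4c9 was at 25.7 and 21.3 FPKM against 1.83 and 3.08 FPKM, with a log2 fold change of 2.86. These 3 genes are among the 10 largest increases, which were picked only where the groups did not overlap. H4c11, also an H4 gene, was at 13.2 and 15.4 FPKM against 1.53 and 1.96 FPKM, and H3c11, an H3 gene, at 11.3 and 10.1 FPKM against 1.72 in both dead libraries. H1f2, a linker histone, was at 33.4 and 29.6 FPKM against 11.7 and 9.14 FPKM. H2ac13, an H2A gene, was at 4.42 and 9.18 FPKM against 0.206 and 0.231 FPKM, and since 1 fragment on this gene is worth 0.193 to 0.268 FPKM, its dead-nuclease values rest on about 1 fragment each and no fold is given. Histone genes of these clusters are near-identical in places, so reads may be divided among copies with some error.

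Against 2.32% over all genes tested, 1 of 10 tested replication-independent histone variants, whose mRNAs do carry poly(A) tails, was called higher. This was H2aj, a variant of H2A, at 55.9 and 63.1 FPKM with RfxCas13d and 19.5 and 14.9 FPKM with dRfxCas13d, with a log2 fold change of 1.76 (adjusted p = 1.78e-10). The median of the list was 0.51. Of its 10 genes, 8 had an adjusted p under 0.05 in the upward direction, against 27.9% over all genes tested. H2aj has no exon length in the annotation used, so the length trend could not be removed from it.

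Small nucleolar RNAs (snoRNAs), which guide the modification of ribosomal RNA and are released from introns of host genes, rose as a second group. Of 104 tested snoRNA and scaRNA entries, 34 were called higher and 1 lower, against 2.32% and 0.85% over all genes tested. Their median log2 fold change was 0.96, and they summed to 2434 and 2486 FPKM with RfxCas13d against 926.9 and 908.0 FPKM with dRfxCas13d. Both box classes were represented, with 18 of 65 C/D box and 15 of 31 H/ACA box entries called higher. snoRNAs carry no poly(A) tail, and how they came into libraries made with an mRNA kit was not tested. Whether counting used the strand is not given in the sources used here, and reads of a host intron over the entry cannot be told apart from the snoRNA itself.

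Snord104, a C/D box snoRNA at chr11:106500991-106501063, was at 223.6 and 253.0 FPKM with RfxCas13d and at 12.6 and 19.9 FPKM with dRfxCas13d. Its log2 fold change was 3.84 ± 0.278 (adjusted p = 2.14e-10). With dRfxCas13d these values correspond to few fragments, as 1 fragment is worth over 1 FPKM on this entry. Snora65, an H/ACA box snoRNA with higher levels, was at 235.8 and 207.8 FPKM against 62.5 and 66.7 FPKM (log2 fold change of 1.78), and Snord19 was at 82.1 and 81.7 FPKM against 15.4 and 19.2 FPKM. In all 3 the active libraries lay above the dead ones, as in 62 of the 104 entries, against 37.0% over all genes tested. Snord22 was at 79.4 and 58.1 FPKM against 23.4 and 23.8 FPKM. Snord2 (91.6 and 58.3 FPKM against 4.07 and 4.57 FPKM) and Snora5c (38.3 and 45.9 FPKM against 4.56 and 2.05 FPKM) rose as well but rest on few fragments with dRfxCas13d. Snord53 was at 18.03 and 10.99 FPKM against 1.36 and 0 FPKM.

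Snord71 was the exception that fell, at 1.47 and 2.34 FPKM with RfxCas13d and 5.76 and 16.2 FPKM with dRfxCas13d (log2 fold change of -1.90, adjusted p = 0.0316), and its call was lost when either RfxCas13d library or replicate 2 of dRfxCas13d was left out, when only the 4 libraries were fitted and when low genes were kept in. miRNA gene entries gave few fragments. Mir7666 was at 24.0 and 34.0 FPKM against 3.35 and 0 FPKM. Mir7013, Mir3470b and Mir466i were listed at 0 in both RfxCas13d libraries and at 2.47 to 5.85 FPKM in those of dRfxCas13d. Mir138-1 was at 1.91 and 0.755 FPKM with RfxCas13d and 5.59 and 8.37 FPKM with dRfxCas13d. An mRNA library does not measure the mature miRNA, so these values concern reads over the hairpin gene.

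Of the spliceosomal and other short RNAs, 9 were tested, and some rose. Of these, 3 were called higher and 0 lower, against 2.32% called higher over all genes tested. Rnu12, the U12 RNA used in splicing of rare introns, was at 15.1 and 21.9 FPKM with RfxCas13d and at 1.84 and 2.07 FPKM with dRfxCas13d (log2 fold change of 2.71, adjusted p = 9.56e-05), and Vaultrc5, a vault RNA, at 13.4 and 9.97 FPKM against 1.87 and 0.901 FPKM. Rnu11, the U11 RNA of the same spliceosome, was at 11.4 and 3.46 FPKM against 0 and 1.92 FPKM, and its call was lost when replicate 1 of either group was left out and in the fit of the 4 libraries alone. The change of Rnu12 with NT crRNA was 3.27, and the difference from crRNA 4 of -0.56 did not pass the test (limma, adjusted p = 0.610, and 0.838 without the library with liver transcripts).

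The hosts and protein partners of snoRNAs were examined as well. Of 19 tested host genes that encode no protein, 6 were called higher and 0 lower, with a median log2 fold change of 0.81. Among all genes tested 2.32% were called higher. In 18 of the 19 the adjusted p was under 0.05 in the upward direction, against 27.9% over all genes tested. Snhg1 was at 711.8 and 732.2 FPKM against 363.6 and 302.9 FPKM, and Snhg20 at 72.2 and 76.1 FPKM against 29.8 and 23.3 FPKM. Snhg8 rose from 24.3 and 19.0 to 43.6 and 44.4 FPKM, and Epb41l4aos from 39.0 and 29.9 to 71.7 and 69.6 FPKM. The number of called hosts fell to 3 after quantile normalization and to 1 with the length trend removed, where the median was 0.75. The cause of these falls was not tested. Without replicate 2 of dRfxCas13d the median of the hosts was 0.70. Of 10 core proteins of the snoRNA particles, Nop10, a component of the H/ACA particle and of telomerase (chr2:112261926-112262898), was called higher. It was at 184.3 and 175.5 FPKM against 54.0 and 51.4 FPKM, with a log2 fold change of 1.77 ± 0.0876 (adjusted p = 8.35e-13), while the median of the list was 0.11.

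Messenger RNAs of ribosomal proteins rose by a smaller amount. Of 84 tested cytosolic ribosomal protein entries, 19 were called higher and 0 lower, against 2.32% called higher over all genes tested. Their median log2 fold change was 0.52, and they summed to 30200 and 30900 FPKM with RfxCas13d and 24110 and 21040 FPKM with dRfxCas13d. Rps18, a small subunit protein, was at 83.2 and 89.3 FPKM against 20.9 and 17.99 FPKM, with a log2 fold change of 2.11 ± 0.146 (adjusted p = 1.14e-10). Rps27a, which is made as a fusion with ubiquitin, was at 87.0 and 89.8 FPKM against 31.0 and 27.9 FPKM. Rpl31 was at 33.1 and 38.5 FPKM against 10.7 and 11.1 FPKM, and Rpl36 at 248.0 and 251.5 FPKM against 118.7 and 94.9 FPKM. The groups overlapped in none of these genes. In 67 of the 84 entries the active values lay above the dead values, against 37.0% over all genes tested. With the length trend removed 12 entries were called higher. Ribosomal protein genes have many processed pseudogenes, and reads shared with them make single genes uncertain.

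Few mitochondrial ribosomal proteins were called, a share near that over all genes tested (2.32% higher). Of 79 mitochondrial ribosomal proteins, 2 were called higher and 0 lower, with a median of 0.29, and these were Mrpl34, at 117.1 and 117.2 FPKM against 46.1 and 38.5 FPKM, and Mrpl36, at 38.0 in both RfxCas13d libraries against 14.5 and 15.2 FPKM. The count was 4 without replicate 1 of dRfxCas13d. Of 82 nuclear-encoded respiratory chain subunits, 8 were called higher and 1 lower, with a median of 0.49. Uqcr10, a small subunit of complex III, was at 249.0 and 259.8 FPKM against 121.5 and 104.3 FPKM. Sdhd, a membrane anchor of complex II, was at 122.7 and 136.1 FPKM against 68.4 and 51.9 FPKM, and Atp5mpl, a small subunit of ATP synthase, at 107.4 and 111.7 FPKM against 51.9 and 33.5 FPKM. Ndufa2, a subunit of complex I, was at 125.4 and 144.8 FPKM against 63.7 and 51.1 FPKM. The subunit called lower was Ndufa12, also of complex I, at 29.1 and 22.9 FPKM with RfxCas13d and 48.6 and 64.0 FPKM with dRfxCas13d, named after its value was seen because it was alone. The count of subunits called higher fell to 4 after quantile normalization, to 4 without replicate 2 of dRfxCas13d and to 3 with the length trend removed, and rose to 13 without replicate 1 of dRfxCas13d. Proteasome subunits (0 of 37 called, median of 0.29) and translation factors (0 of 50 called, median of 0.11) did not reach a fold of 2. At an adjusted p under 0.05 alone, 25 proteasome subunits were higher and 3 lower, and 22 translation factors were higher and 8 lower. The shares over all genes tested were 27.9% higher and 26.8% lower. Psmb5, a catalytic subunit of the proteasome, was at 72.0 and 77.3 FPKM against 41.7 and 35.3 FPKM, and Psmb6, another, at 267.8 and 268.8 FPKM against 182.3 and 162.8 FPKM. Eif5a, the hypusinated translation factor, was at 979.8 and 973.4 FPKM against 657.4 and 525.1 FPKM, whereas the long initiation factor gene Eif4g3 was at 32.7 and 30.7 FPKM against 52.8 and 54.9 FPKM.

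Of 14 tested Gadd45 and stress kinase genes, 2 were called higher, against 2.32% over all genes tested, and the median of the list was 0.11. Gadd45b, which binds the kinase MTK1 upstream of p38 and JNK (chr10:80930091-80932204), was at 68.0 and 75.6 FPKM with RfxCas13d and at 25.5 and 20.7 FPKM with dRfxCas13d. Its log2 fold change was 1.61 ± 0.0818 (adjusted p = 1.19e-12). Its relative Gadd45g was at 203.8 and 203.2 FPKM against 79.8 and 77.3 FPKM, with a log2 fold change of 1.38. Gadd45a was at 30.1 and 31.6 FPKM against 16.3 and 16.0 FPKM, just short of a fold of 2.

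Of 33 tested immediate early genes, which are transcribed within minutes of a stimulus, 4 were called higher and 0 lower, with a median of 0.33. The share called higher over all genes tested was 2.32%. Junb, an AP-1 subunit, was at 218.8 and 219.2 FPKM with RfxCas13d and at 107.9 and 98.2 FPKM with dRfxCas13d. Fos, another AP-1 subunit, was at 48.7 and 47.0 FPKM against 23.7 and 21.3 FPKM. Ier5 was at 37.5 and 39.1 FPKM against 17.9 and 14.4 FPKM, and Egr2, a zinc finger factor, at 9.79 and 10.9 FPKM against 4.11 and 4.59 FPKM. The groups did not overlap in any of them, and in 25 of the 33 the active values lay above the dead values, against 37.0% over all genes tested. The log2 fold changes of the 4 called genes were between 1.07 and 1.22, so the calls lay close to the threshold. After quantile normalization 2 of the 33 genes were called, and 1 once the length trend was removed. Of 41 integrated stress response targets, 1 was called higher, Gdf15, a secreted stress cytokine, at 34.6 and 35.4 FPKM against 18.7 and 14.6 FPKM, with a median over the list of 0.06. This call was lost after quantile normalization, with the length trend removed and without replicate 2 of dRfxCas13d, and 1 of 41 is near the share over all genes. None of 27 p53 targets (median of 0.12) or 35 chaperones (0.00) was called by limma. The same held for 51 DNA replication and G1/S genes (0.08) and 53 mitosis and G2/M genes (0.06). An adjusted p under 0.05 in either direction was found for 18 p53, 38 replication, 25 mitosis and 15 chaperone genes. At that adjusted p, 27.9% of all genes tested were higher and 26.8% lower. Ak1, an adenylate kinase in the p53 list, was at 82.9 and 79.3 FPKM against 55.8 and 56.5 FPKM. In the cell cycle lists Rpa2, a single-strand DNA binding protein, was at 54.7 and 57.4 FPKM against 36.8 and 36.9 FPKM, and Fen1, a flap endonuclease, at 50.3 and 50.4 FPKM against 29.0 and 22.3 FPKM. Ndc80, a kinetochore protein, was at 31.2 and 32.8 FPKM against 46.4 and 47.2 FPKM, and the checkpoint kinase gene Bub1 at 27.7 and 27.5 FPKM against 37.1 and 34.6 FPKM. Among the chaperones Fkbp4 was at 181.0 and 187.0 FPKM against 137.7 and 130.7 FPKM and Chordc1, a partner of Hsp90, at 35.8 and 36.7 FPKM against 61.2 and 57.8 FPKM.

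Tmem158, Rnf225 and Tmem203 completed the 10 largest increases. Tmem158, first described as a gene induced by Ras, was at 9.09 and 9.49 FPKM with RfxCas13d and 1.06 and 0.837 FPKM with dRfxCas13d, with a log2 fold change of 2.41. Rnf225, a RING finger gene, was at 6.73 and 7.55 FPKM against 0.939 and 0.991 FPKM, and Tmem203, a membrane protein of the endoplasmic reticulum, at 11.1 and 12.9 FPKM against 3.53 and 1.13 FPKM. Genes for this ranking were picked only where the groups did not overlap.

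**Figure D3:**
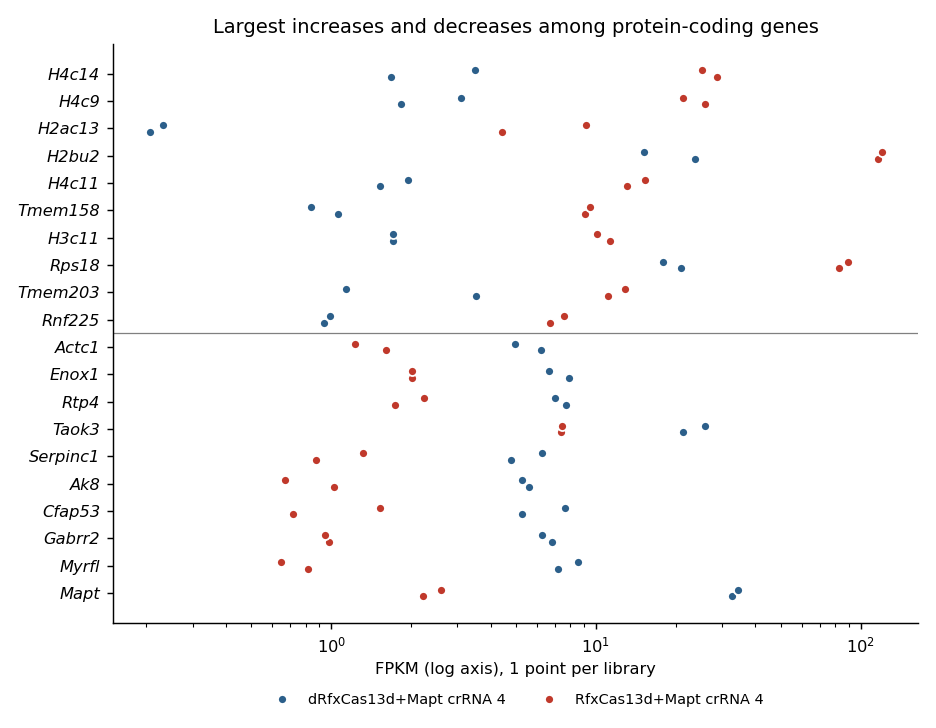
FPKM (horizontal log axis) of the 10 largest increases, above the line, and the 10 largest decreases, below it, among called protein-coding genes at 5 FPKM or more in the higher group, 1 point per library, red for RfxCas13d and blue for dRfxCas13d. Only genes whose groups are separate were picked, and Mapt is the gene with the largest decrease.

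Of the 113 genes called lower, 51 had a mean under 5 FPKM in both groups, and the median level over the 113 was 5.75 FPKM with dRfxCas13d and 1.42 FPKM with RfxCas13d. After Mapt, the largest was that of Myrfl, a gene related to the myelin regulatory factor, at 0.818 and 0.648 FPKM with RfxCas13d and 7.195 and 8.58 FPKM with dRfxCas13d (log2 fold change of -2.35 ± 0.147, adjusted p = 2.49e-11). Gabrr2, a subunit of GABA receptors, was at 0.985 and 0.945 FPKM against 6.84 and 6.26 FPKM. Both genes were called lower, and the largest decreases were picked only where the groups did not overlap. Serpinc1, which encodes antithrombin, was at 0.873 and 1.32 FPKM against 4.78 and 6.28 FPKM, Enox1 at 2.02 FPKM in both RfxCas13d libraries against 7.89 and 6.64 FPKM, and Actc1, the cardiac actin gene, at 1.62 and 1.23 FPKM against 6.19 and 4.97 FPKM.

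A few genes of higher level fell as well. Taok3, a kinase that acts upstream of stress MAP kinases, was at 7.38 and 7.45 FPKM against 21.3 and 25.8 FPKM, with a log2 fold change of -1.53 (adjusted p = 2.46e-11). Smg6, the endonuclease of nonsense-mediated mRNA decay (chr11:74925854-75164448), was at 13.0 and 12.6 FPKM against 31.0 and 33.3 FPKM, with a log2 fold change of -1.25 ± 0.0472 (adjusted p = 1.06e-14). It was the 1 of 50 tested RNA decay factors that was called, beside 0.85% called lower over all genes tested. The median of that list was -0.08.

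Motile cilia and interferon-stimulated genes held called decreases, and over all genes tested 0.85% were called lower. Of 30 tested genes of motile cilia, 2 were called lower and 0 higher, with a median of -0.21, and these were Ak8, an adenylate kinase of the axoneme, at 1.02 and 0.667 FPKM against 5.58 and 5.28 FPKM, and Cfap53, a cilia- and flagella-associated protein, at 0.716 and 1.53 FPKM against 5.25 and 7.62 FPKM. Of 46 interferon-stimulated genes, 2 were called lower and 0 higher, with a median of -0.22. Rtp4 was at 1.74 and 2.23 FPKM against 7.68 and 6.98 FPKM, and Usp18, which removes the ubiquitin-like protein ISG15, at 3.89 and 3.93 FPKM against 10.6 and 11.5 FPKM. These counts moved with the processing. With a pseudocount of 0.1, 7 cilia genes were called lower and 2 higher, and 9 interferon-stimulated genes lower. At a mean of at least 5 FPKM no cilia gene was called, and 5 interferon-stimulated genes were called lower with the length trend removed and 4 without replicate 1 of dRfxCas13d. The median of the cilia genes was -0.21 with NT crRNA too (-0.17 without the library with liver transcripts), and -0.11 for the mean of the 5 other guides. The median of the interferon-stimulated genes was -0.47 with NT crRNA (-0.50 without the library with liver transcripts) and -0.49 for the mean of the 5 other guides. The fall of Usp18 with NT crRNA was -1.98 against -1.28 with crRNA 4.

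Genes close to tau in function were called at no more than the share over all genes tested (3.17% in either direction). At an adjusted p under 0.05 alone, which the counts in brackets below use, 27.9% of all genes tested were higher and 26.8% lower. Of 34 tested microtubule-associated proteins other than the target, 1 was called lower, Map7, at 0.337 and 0.552 FPKM with RfxCas13d and 2.55 and 2.10 FPKM with dRfxCas13d, and the median was -0.19. None of 33 tau kinases and phosphatases was called by limma (22 had an adjusted p under 0.05), with a median of -0.07, and the members with the smallest p, Ppp5c (143.7 and 132.5 FPKM against 96.9 in both) and Ppp2r1a (204.2 and 213.9 FPKM against 159.8 and 139.9 FPKM), are phosphatase genes. Of 13 tubulins 0 were called (7 had an adjusted p under 0.05), with a median of 0.13. Tuba1b, an abundant alpha-tubulin, was at 485.9 and 514.2 FPKM against 321.0 and 305.6 FPKM, and Tubb4b, a beta-tubulin, at 201.9 and 201.4 FPKM against 156.9 and 152.1 FPKM. Long non-coding RNAs kept in the nucleus had a median of -0.05, with 0 of 7 called (2 had an adjusted p under 0.05), among them Tug1 at 16.7 and 15.9 FPKM against 13.2 and 13.6 FPKM and Pvt1 at 9.36 and 9.78 FPKM against 12.03 and 11.2 FPKM. Of the 27 genes with the crRNA 4 site at 4 mismatches, 23 were in the table and 15 were tested, of which 0 were called (11 had an adjusted p under 0.05). Their median was -0.20. Exoc6b, an exocyst subunit, was at 7.23 and 6.79 FPKM against 11.2 and 11.3 FPKM and Usp9x, a deubiquitinase, at 13.0 and 13.7 FPKM against 19.9 and 21.3 FPKM, and their exon lengths are 15133 and 15051 bases.

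**Figure D4:**
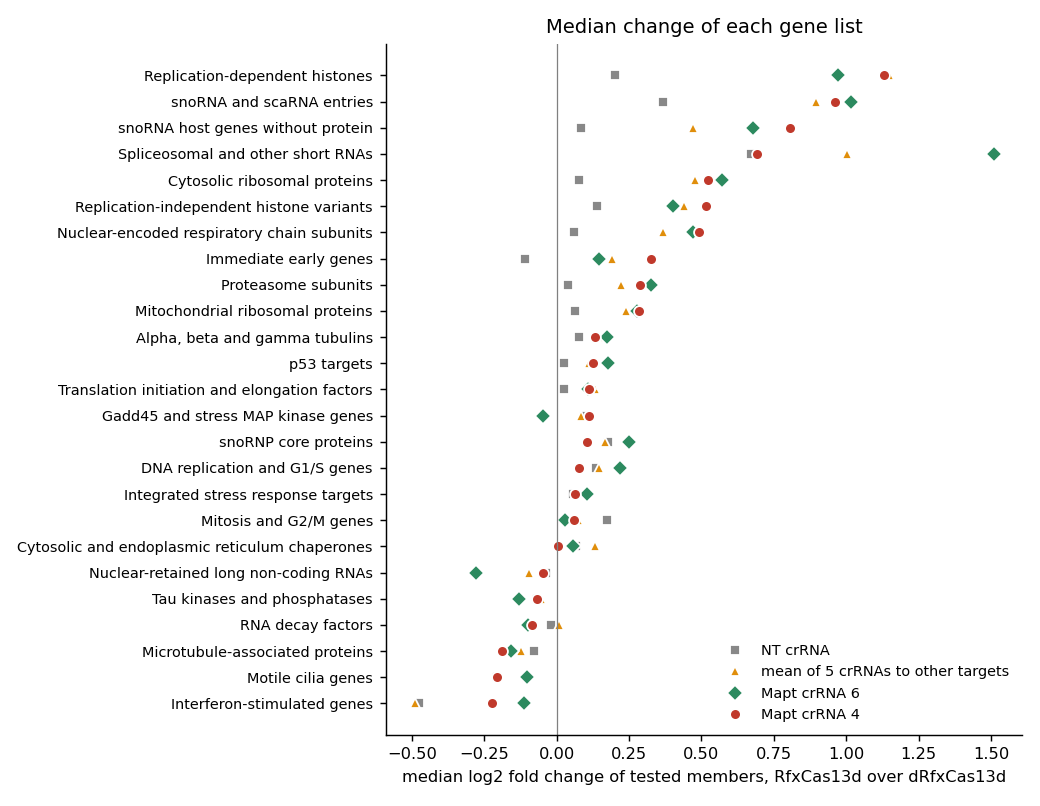
Median log2 fold change of RfxCas13d over dRfxCas13d (horizontal axis) over the tested members of each gene list (vertical axis), for Mapt crRNA 4 (red circles), Mapt crRNA 6 (green diamonds), the mean of 5 crRNAs to other targets (orange triangles) and NT crRNA (grey squares). With crRNA 4 the median of the replication-dependent histones is 1.13 and with NT crRNA it is 0.20.

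The effect of the active nuclease with crRNA 4 was compared with that with NT crRNA. The NT spacer lacks a target and also differs from that of crRNA 4 in its bases, and these cannot be told apart. Whether the changes needed a target was therefore not tested. With NT crRNA alone, 27 genes were called higher with the active nuclease (0.203%) and 48 lower (0.361%), of which 15 and 18 were also called with crRNA 4. Without the NT library that held liver transcripts, the counts were 21 and 58, of which 8 and 20 were also called with crRNA 4. The difference of the effects was called higher for crRNA 4 in 141 genes (1.06% of those tested) and lower in 23 (0.173%), and without the NT library that held liver transcripts in 126 and 32, of which 104 and 19 were among the former. Over the 309 genes called higher with crRNA 4 the median log2 fold change was 1.24 with crRNA 4 and 0.34 with NT crRNA, and 106 of them were also called in the difference (0.33 and 92 without that library). Over the 113 called lower the medians were -1.18 and -0.55, and 12 were also called in the difference (-0.54 and 14 without that library). Leaving out replicate 2 of dRfxCas13d+Mapt crRNA 4 lowered the count of higher genes to 88.

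Among the lists, the replication-dependent histones had the highest share of members called in this difference. The crRNA 4 effect was called above the NT effect in 18 of the 55 tested histones, and in the same 18 without the library with liver transcripts, and the median histone change with NT crRNA was 0.20 (0.16 without it). H4c14 differed by 3.27, H4c11 by 2.33 and H2bu2 by 1.82 on the log2 scale. Of the snoRNA entries, 15 were called above NT crRNA and 1 below, and 9 of the 15 remained without the library with liver transcripts. Of the ribosomal proteins 8 were called, with 7 kept among 10 without that library. Gadd45b differed by 1.20 (adjusted p = 3.26e-07), Fos by 1.27, Ier5 by 1.11 and Nop10 by 1.09, and each of them was called without that library too. The difference for Serpinc1 was -1.42, and it fell to -0.60 and lost its call (adjusted p = 0.0511) without the library with liver transcripts. With NT crRNA, Ak8 changed by -1.46 and Actc1 by -1.31, and for neither was a difference from crRNA 4 detected (limma, adjusted p = 0.331 and 0.739, and 0.315 and 0.942 without the library with liver transcripts).

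Compared with crRNA 6, whose spacer overlaps that of crRNA 4, 1 gene was called different. In the same model 277 genes (2.08%) were called higher and 122 (0.918%) lower with crRNA 6, of which 171 higher genes (55.3% of those with crRNA 4 and 61.7% of those with crRNA 6) and 71 lower genes (62.8% and 58.2%) were shared. These comparisons rest on separate libraries. Across the 13293 genes the fold changes correlated with r = 0.823 as a description, in which both share the genes' lengths and levels. The same r was 0.873 with the mean of the 5 crRNAs to other targets and 0.512 with NT crRNA (0.476 without the library with liver transcripts). That mean rests on 20 libraries and the effects of crRNA 6 and NT crRNA on 4 each, so these r cannot be ranked. The difference of the effects was called in 1 gene (0.00752%), the miRNA gene Mir181d, which was at 0 in all 4 crRNA 4 libraries and at 1.23 and 1.06 FPKM in the RfxCas13d libraries of crRNA 6, near the value of 1 fragment. At an adjusted p under 0.05 alone 12 genes differed (0.0903%), and at an unadjusted p under 0.05 1160 did (8.73%).

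Of those 12, the following are named after their values were seen. Scd2, a fatty acid desaturase, was at 258.6 and 253.9 FPKM with RfxCas13d and 174.8 and 183.6 FPKM with dRfxCas13d with crRNA 4, and at 207.6 and 209.5 FPKM against 188.3 and 188.8 FPKM with crRNA 6. Fdft1, squalene synthase, changed by 0.14 with crRNA 4 and -0.32 with crRNA 6 (limma, adjusted p of the difference = 0.0215). Bnip3, a mitophagy receptor gene that hypoxia induces, was at 75.7 and 72.0 FPKM against 78.4 and 71.5 FPKM with crRNA 4 and at 40.3 and 40.6 FPKM against 74.9 and 67.8 FPKM with crRNA 6. The glycolytic enzymes Pfkp (-0.17 and -0.48) and Hk2 (0.09 and -0.26) also differed, as did Fosb, an AP-1 subunit (0.81 and -0.03, adjusted p = 1.23e-04) and Hspa5, the endoplasmic reticulum chaperone BiP (0.13 and 0.30). None of these differences reached a fold of 2.

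Compared with the mean effect of the 5 crRNAs to other targets, Mapt was the 1 gene called (0.00752%). It was called under each alternative processing tried and without each library in turn. Without a fold threshold 53 genes had an adjusted p under 0.05 (0.399%), at an unadjusted p 1721 (12.9%), and Fosb (0.81 with crRNA 4 and -0.18 for the 5 guides, adjusted p = 4.65e-08), Fos (1.07 and 0.49) and Insig1, a regulator of sterol synthesis (0.79 and 0.22), stood among the first, beside Sik3 and Map2, which were targets of 4 of the 5 guides. The median change of the histones was 1.15 for the mean of these guides against 1.13 with crRNA 4, and that of the snoRNA entries 0.90 against 0.96. Of these guides, Rbfox3 crRNA 5 had a target near 0, with Rbfox3 at 0.041 and 0.113 FPKM in its dRfxCas13d libraries. The mean of these guides rests on 20 libraries, so the 53 genes cannot be set directly beside the 12 for crRNA 6.

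**Figure D5:**
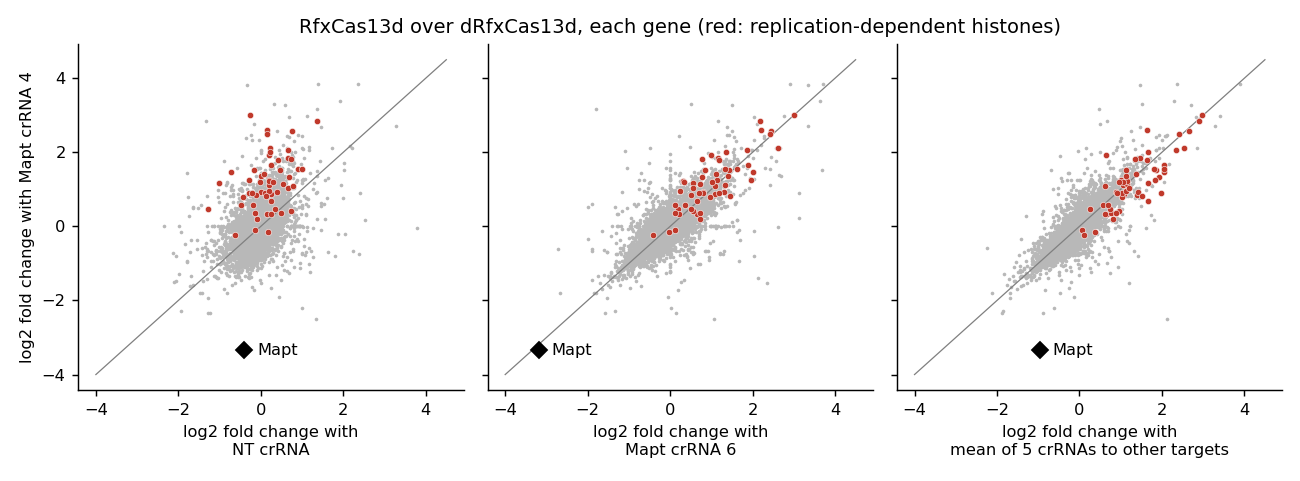
The log2 fold change of RfxCas13d over dRfxCas13d with Mapt crRNA 4 (vertical axis) against that with NT crRNA, Mapt crRNA 6 and the mean of 5 crRNAs to other targets (horizontal axes), 1 point per gene, with the line of equal change, Mapt as a black diamond and replication-dependent histones in red. Mapt lies on the line with crRNA 6 and below it with the others, and the histones lie above the line with NT crRNA and around it with the targeting guides.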

How the data were processed

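Per the study's methods, reads were trimmed with Trim Galore, aligned to mm10 with Subread and counted with featureCounts, and the authors turned the counts into the deposited FPKM. The sources used here do not give the annotation or tool versions. Of 25239 genes in the table, 13293 that reached 1 FPKM in 2 or more of the 36 libraries were tested. FPKM were divided by median-of-ratios factors, and limma 3.58.1 (R 4.3.3) was run on log2(FPKM + 1), each of the 18 groups having its own mean, with an intensity trend and Benjamini-Hochberg adjustment. Fold changes are on this scale and understate those of low genes. Effects were compared between crRNAs as differences of differences. The procedure was tested on simulated data. Depth came from whole fragments (94.8 to 98.1% of the low values used within 0.1 of a whole number in these 4 libraries). Exon lengths and target sites came from GENCODE vM21, biotypes and gene positions from RefSeq. The members, gene lists and tests were chosen with earlier results of these data known. Genes named are the 4 targets, the 10 largest changes in each direction among called protein-coding genes at 5 FPKM or more without overlap, the 5 largest of other entries, the 4 called members of each list with the smallest p (or 2 members if none was called), and the 5 largest called in each direction for each difference of effects. The alternatives were other pseudocounts, filters, scalings, libraries, a replicate block, removal of the length trend and leaving out each library. Some results are not reported here.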

Additional observations from a re-analysis of the deposited data

Results flagged for a closer look

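The effect of the active nuclease with crRNA 4 differed from that with NT crRNA in 164 genes, by limma's test of the difference itself. Among the genes named, differences on the log2 scale are given as crRNA 4 minus NT crRNA. Mapt differed by -2.93. The histone genes H4c14, H2ac13, H4c11, H3c11, H2bu2, H4c9, H2aj and H1f2 differed by 3.27, 2.47, 2.33, 1.89, 1.82, 1.49, 1.15 and 1.06. The snoRNA entries Snord2, Snord66, Snord53, Snord104, Snord19 and Snora65 differed by 4.14, 3.23, 2.98, 2.44, 1.67 and 1.25, and Snora75 by -2.23, with few fragments in each group for Snord66, Snord53 and Snora75. Snord53 and Snord66 lost their calls without the RfxCas13d+NT crRNA library that held liver transcripts (adjusted p = 0.0537 and 0.0562), as did Serpinc1 (-1.42). Without that library 30 of the 33 named genes kept their calls.

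Nop10 differed by 1.09 and the snoRNA host Snhg20 by 1.17. The ribosomal proteins Rps18, Rpl36 and Rps27a differed by 1.11, 1.07 and 1.06, the mitochondrial ribosomal protein Mrpl36 by 1.06 and the ATP synthase subunit Atp5mpl by 1.14. Fos, Gadd45b and Ier5 differed by 1.27, 1.20 and 1.11, and Tmem158 by 1.73. Myrfl differed by -1.12. Low entries also differed, Mir7671 by 4.17, Mir466i by -3.20, the X-linked homeobox gene Rhox2b by -1.74 and Gm20594 by -1.50. Mir7671 was at 4.88 and 7.73 FPKM with RfxCas13d and at 0 in both dRfxCas13d libraries with crRNA 4, and the dead-nuclease values of H2ac13 rest on about 1 fragment each. The differences of these genes depend on the pseudocount and do not measure the size of a change.

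With Mapt crRNA 6 the effect differed in 1 gene, Mir181d, by -1.10. With the mean of the 5 crRNAs to other targets it differed in 1 gene, Mapt, by -2.37.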

How the results depend on the processing

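With crRNA 4, 309 genes were called higher and 113 lower, and the counts became 461 and 436 with a pseudocount of 0.1, 379 and 248 with 0.5, 197 and 45 at a mean of at least 5 FPKM, 165 and 163 with the length trend removed, and 3707 and 3567 with adjusted p alone. Leaving out 1 library gave 246 to 387 and 127 to 162. For the difference from NT crRNA (141 and 23), a pseudocount of 0.1 gave 93 lower and 0.5 gave 62 lower, a mean of at least 5 FPKM gave 83 and 7, the length trend removed gave 62 and 53, and adjusted p alone gave 1712 and 1669. Leaving out 1 library gave 88 to 190 and 19 to 51. The difference from crRNA 6 (1 gene) gave 0 with a pseudocount of 0.1, with only the libraries compared and with protein-coding genes only, 12 with adjusted p alone, and 0 to 4 without 1 library. The difference from the other 5 guides (1 gene) gave 5 and 3 with pseudocounts of 0.1 and 0.5, 2 as deposited, with the length trend removed and with protein-coding genes only, 53 with adjusted p alone, and 1 to 12 without 1 library, the highest without replicate 1 of dRfxCas13d+Mapt crRNA 4. Against RfxCas13d+NT crRNA 9.49% of Mapt remained. Allowing 4 mismatches gave 27 near matches. Of the histones 7 were called at a mean of at least 5 FPKM, where fewer were tested. Called higher were 12 ribosomal proteins and 3 respiratory subunits with the length trend removed (chosen after seeing the data), and 4 respiratory subunits after quantile normalization and 4 to 13 without 1 library. Except where fewer genes or libraries entered, the cause was not tested.

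Replicate numbers did not pair the libraries (correlation of deviations -0.00066 with crRNA 4). With a replicate block 310 genes were called higher and 113 lower, and the block with the length trend removed gave 165 higher, and for NT crRNA 62 higher and 54 lower, and for the other 5 guides 2. No named gene reversed. Short entries rest on few fragments, so their folds are the least precise.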
